A study of Mus musculus with 12 samples.

Results

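The genes described here are 10 members of the Serpina cluster on mouse chromosome 12, which encode secreted plasma proteins of the serpin family. They were chosen by gene symbol as Serpina1a, Serpina1b, Serpina1c, Serpina1d, Serpina1e, Serpina3k, Serpina3m, Serpina3n, Serpina6 and Serpina4-ps1, with the levels of these same livers already known, above all the very low level of Serpina4-ps1 after alcohol. All 10 were found among the 54232 Ensembl gene IDs of the count table, and all 10 were among the 14168 genes with enough reads to enter the fit across genes. Since the choice rested on alcohol-fed against pair-fed livers, that comparison is given for the 10 genes as a description. Their fold changes, and whether each passed the threshold of the fit across all genes, are listed without being offered as evidence.

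Poly(A) RNA of whole liver was sequenced in male C57BL6/J mice of an intragastric feeding model of alcohol-associated steatohepatitis (ASH), with 1 library per animal. There were 5 controls on pair feeding (PF) and 7 animals on alcohol (AF). AF mice were infused with a high-fat liquid diet that carried ethanol, raised to 27 g/kg/day during 8 weeks, and were given a binge of 5 g/kg each week. PF mice had the isocaloric high-fat liquid diet without ethanol, and the methods of the study also describe a solid Western diet rich in cholesterol and saturated fat (HCFD). The labels give the age as 8-week and do not say whether this was at the start or at the end of feeding. No genotype or transgene differed between the groups, the replicates were separate mice, and whole liver was used, so that fewer hepatocytes and less RNA per hepatocyte cannot be told apart in a level of a single gene.

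Serpins are protease inhibitors that offer an exposed reactive centre loop as bait and trap the protease that cuts it. Hepatocytes secrete most of the serpins in plasma. The Serpina1 genes are the mouse copies of the alpha-1-antitrypsin gene, which is a single gene in the human genome. Its human product is the main plasma inhibitor of neutrophil elastase. The mouse copies differ in the loop, and which proteases each of them inhibits was not measured here. The Serpina3 genes are the expanded mouse relatives of alpha-1-antichymotrypsin, and Serpina3n is an acute phase gene. Serpina6 encodes corticosteroid-binding globulin, which carries glucocorticoids in blood and does not inhibit proteases, and Serpina4-ps1 is an annotated pseudogene related to kallistatin.

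The loop is the part of the protein that meets the protease, and its coding sequence is shown for the 8 inhibitor genes because it tells which product each count stands for. Each stretch starts at the conserved hinge of the loop, covers 78 bases of the last exon, and was read from the GENCODE M21 transcripts on assembly GRCm38, 5′ to 3′ on the coding strand. Capitals mark the positions at which the copies of a subfamily are not all the same. In the Serpina1 subfamily 18 of the 78 positions varied:
Serpina1a: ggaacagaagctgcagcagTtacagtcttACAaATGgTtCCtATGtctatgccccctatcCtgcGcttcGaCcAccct
Serpina1b: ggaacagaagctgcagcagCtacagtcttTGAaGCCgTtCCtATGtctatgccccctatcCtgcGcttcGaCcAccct
Serpina1c: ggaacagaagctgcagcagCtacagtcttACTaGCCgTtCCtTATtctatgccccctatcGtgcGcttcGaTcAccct
Serpina1d: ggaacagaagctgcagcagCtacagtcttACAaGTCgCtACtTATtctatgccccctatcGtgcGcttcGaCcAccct
Serpina1e: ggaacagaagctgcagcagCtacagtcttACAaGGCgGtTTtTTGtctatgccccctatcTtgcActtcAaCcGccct

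The Serpina1 stretches lie on the minus strand at chr12:103853753-103853830 for Serpina1a, chr12:103728320-103728397 for Serpina1b, chr12:103895090-103895167 for Serpina1c, chr12:103763758-103763835 for Serpina1d and chr12:103947096-103947173 for Serpina1e. Over the whole coding sequence of 1239 aligned bases these 5 genes were 96.3 to 98.5% identical in every pair. In the Serpina3 subfamily, whose capitals follow the same rule, 39 of the 78 positions varied:
Serpina3k: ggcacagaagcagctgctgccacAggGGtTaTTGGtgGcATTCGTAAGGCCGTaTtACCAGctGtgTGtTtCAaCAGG
Serpina3m: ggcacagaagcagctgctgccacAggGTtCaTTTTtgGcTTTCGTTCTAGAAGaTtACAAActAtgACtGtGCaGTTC
Serpina3n: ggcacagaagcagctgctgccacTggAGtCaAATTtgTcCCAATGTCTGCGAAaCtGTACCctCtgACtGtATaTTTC

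The Serpina3 stretches lie on the plus strand at chr12:104345269-104345346 for Serpina3k, chr12:104393769-104393846 for Serpina3m and chr12:104413448-104413525 for Serpina3n. Coding identity was 91.7% between Serpina3k and Serpina3m, 85.2% between Serpina3m and Serpina3n and 82.9% between Serpina3k and Serpina3n. Such likeness matters for the counts. Of all 75-base windows in the transcripts of a gene, 26.4% were found in no other gene for Serpina1c, 50.7% for Serpina1a, 62.9% for Serpina1d, 80.3% for Serpina1e, 81% for Serpina1b, and 90.3% or more for Serpina3k, Serpina3m, Serpina3n, Serpina6 and Serpina4-ps1. The read length and the handling of reads with several matches are not given in the sources used here, so the split of reads among Serpina1a, Serpina1c and Serpina1d is uncertain, and that of Serpina1b and Serpina1e less so. Serpina3k and Serpina3m also share a first exon of 60 bases on the same strand.

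The region just upstream of the Serpina1 start sites is shown because Serpina1e stood far below the other copies in AF livers, a difference between copies that was not tested. The sequences are from RefSeq on GRCm38.p6, 5′ to 3′ on the gene's strand, and end before the first exon of the transcript that starts there. The GENCODE genes of Serpina1b and Serpina1e also have transcripts with starts farther upstream, so that their printed stretches lie in introns of those transcripts. Capitals mark the 30 of 232 aligned columns in which the genes are not all the same:
Serpina1a: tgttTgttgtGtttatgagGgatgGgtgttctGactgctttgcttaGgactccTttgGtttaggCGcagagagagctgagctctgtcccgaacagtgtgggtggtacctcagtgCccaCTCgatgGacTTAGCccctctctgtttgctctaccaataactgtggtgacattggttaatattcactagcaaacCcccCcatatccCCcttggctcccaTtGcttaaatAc
Serpina1b: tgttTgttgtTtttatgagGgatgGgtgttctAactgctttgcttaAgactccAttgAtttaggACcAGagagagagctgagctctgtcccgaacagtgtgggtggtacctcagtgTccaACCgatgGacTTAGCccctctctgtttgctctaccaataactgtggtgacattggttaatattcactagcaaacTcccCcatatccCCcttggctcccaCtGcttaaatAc
Serpina1c: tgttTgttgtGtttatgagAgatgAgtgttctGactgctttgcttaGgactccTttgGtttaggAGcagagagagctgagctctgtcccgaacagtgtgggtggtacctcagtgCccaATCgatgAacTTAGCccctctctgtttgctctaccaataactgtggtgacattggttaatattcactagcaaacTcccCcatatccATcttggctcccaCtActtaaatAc
Serpina1d: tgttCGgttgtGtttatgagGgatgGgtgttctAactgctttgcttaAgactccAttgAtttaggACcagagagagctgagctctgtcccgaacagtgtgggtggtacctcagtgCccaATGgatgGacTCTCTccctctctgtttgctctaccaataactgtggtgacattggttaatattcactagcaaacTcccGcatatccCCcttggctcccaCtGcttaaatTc
Serpina1e: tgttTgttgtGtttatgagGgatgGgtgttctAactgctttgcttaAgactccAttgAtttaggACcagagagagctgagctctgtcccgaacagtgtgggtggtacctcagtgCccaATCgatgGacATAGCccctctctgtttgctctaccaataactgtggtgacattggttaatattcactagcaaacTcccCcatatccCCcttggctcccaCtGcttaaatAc

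These stretches lie on the minus strand at chr12:103863584-103863812 for Serpina1a, chr12:103738159-103738389 for Serpina1b, chr12:103904921-103905149 for Serpina1c, chr12:103773593-103773822 for Serpina1d and chr12:103956919-103957147 for Serpina1e. Identity between pairs ran from 91.7%, for Serpina1c and Serpina1d, to 98.3%. Serpina1e was 98.3% identical to Serpina1b over 229 bases, 96.1% to Serpina1d, 95.6% to Serpina1a and 94.8% to Serpina1c, and held 1 base that no other copy had at that column. The set of RefSeq promoters used here held 6 of the 10 genes, namely the Serpina1 copies and Serpina3n. In the full windows of 300 bases, from 250 before to 50 after the start and on both strands, the letters TTGCNNAA, a C/EBP pattern, were found in Serpina1a, Serpina1b, Serpina1d and Serpina1e but not in Serpina1c or Serpina3n, and in 10.8% of all 32851 mouse promoters of that length. AGAACA, the core of a glucocorticoid receptor site, was found in all 6 genes (19% of all promoters), and TTCNNNGAA, the STAT5 pattern, in none of them (8.3% of all promoters). Such matches describe letters only, and no binding was measured.

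Libraries held 24129900 to 30578639 reads counted on genes. Levels are given as CPM, a gene's counts in parts per 1e+06 of the library size, which TMM in edgeR had adjusted. The TMM factors of PF livers were 0.832 to 0.901, and those of AF livers 0.88 to 1.36. A log2 fold change of AF against PF comes from edgeR's quasi-likelihood fit over the 14168 genes and is printed with its standard error (SE). A gene was called where the Benjamini-Hochberg adjusted p was under 0.05, which held for 39.8% of all genes, 17.8% lower and 22.0% higher in AF. The median log2 fold change of all genes was 0.04 with TMM and 0.40 when libraries were scaled by their totals alone, so that small differences depend on the scaling. All 10 hepatocyte markers were detected, as the liver label requires. Their summed level was 102338 to 146572 CPM in PF and 56495 to 106989 CPM in AF livers. On the first principal component (60.1% of the variance) PF livers lay between -71.4 and -51.4, AF replicate 6 at -7.49, and the other AF livers between 20.9 and 82.2.

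Among the 10 genes, 5 were called lower in AF, namely Serpina1c, Serpina1d, Serpina1e, Serpina3k and Serpina4-ps1, against the background of 17.8% lower. None was called higher by edgeR (background 22.0%), nor by DESeq2, by limma-voom or at an unadjusted p under 0.05. By edgeR's adjusted p, Serpina1a, Serpina1b, Serpina3m, Serpina3n and Serpina6 were not called. The number lower was 6 with DESeq2, with limma-voom and at an unadjusted p under 0.05. DESeq2 and limma-voom each added Serpina1a. With edgeR but without AF replicate 6, the number called lower was 7, with Serpina1a and Serpina3m added. Every AF liver was below the lowest PF liver for Serpina1d, Serpina1e, Serpina3k and Serpina4-ps1, as for 9.49% of all genes, and none of the 10 had every AF liver above the highest PF liver (8.20% of all genes). Because these values chose the genes, nothing is read from these counts. The median log2 fold change was -0.73 over the 10 genes and 0.04 over all genes. Together the 10 genes took 3.12% ± 0.479 (SD, n = 5) of all counted reads in PF and 1.29% ± 0.416 (SD, n = 7) in AF livers. Serpina1e and Serpina3k made up 79.8% of the difference of 24030 CPM between the group means.

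**Figure D1:**
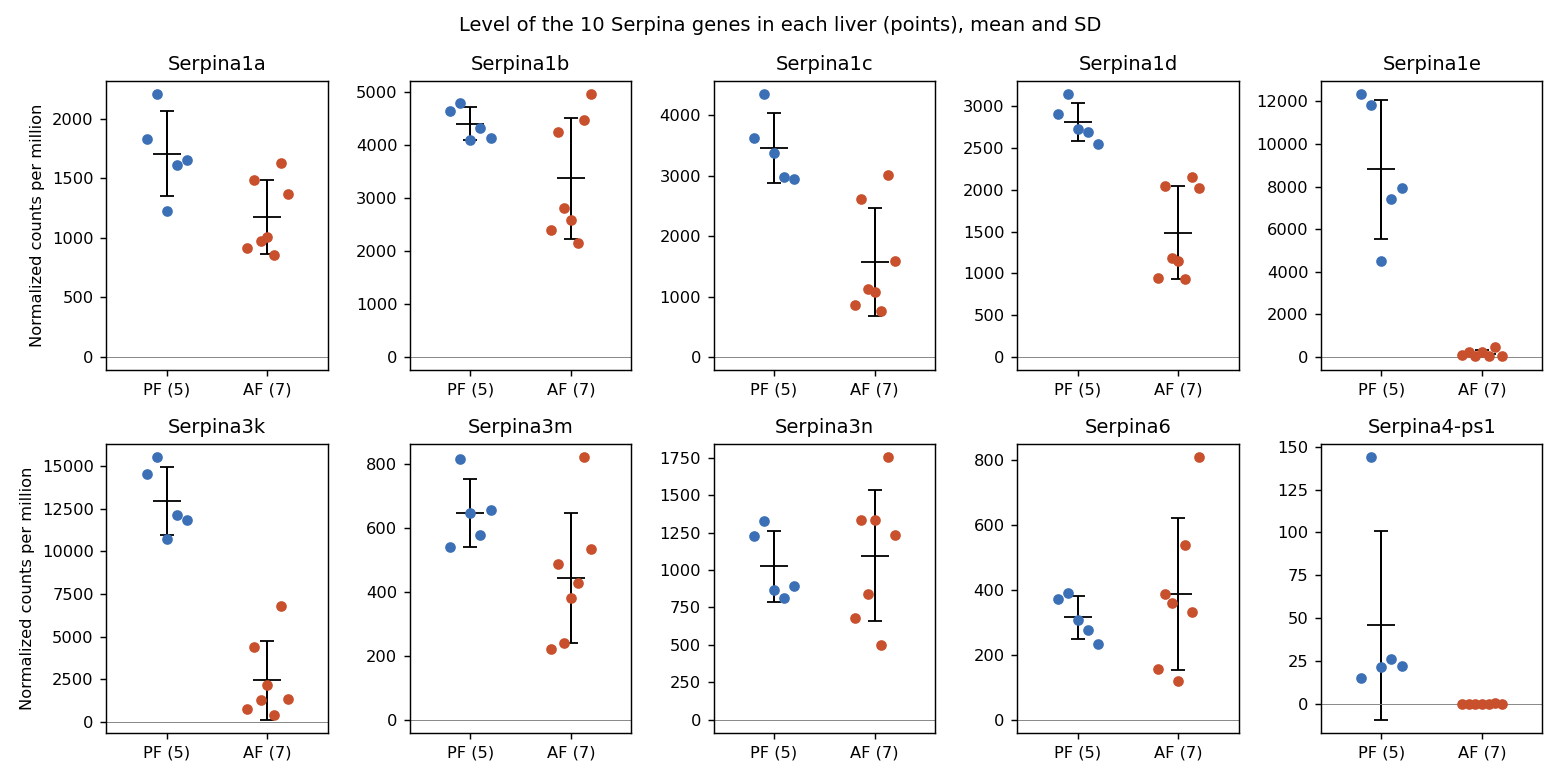
Level of each of the 10 genes in each liver, in CPM on linear axes from 0, for 5 PF (blue) and 7 AF (orange) livers, with the group mean and SD in black. Serpina1e, Serpina3k, Serpina1d and Serpina4-ps1 do not overlap between the groups, while Serpina3n and Serpina6 spread over and beyond the PF range in AF livers.

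Reads of all 5 Serpina1 copies were found in PF livers, and Serpina1e carried the most reads as counted. Serpina1e stood at 12343, 11827, 4527, 7429 and 7918 CPM in PF replicates 1 to 5, and in AF livers its lowest value was 25.1, its median 106 and its highest 458 CPM. Even the highest AF liver, replicate 6, was far below the lowest PF liver, replicate 3. The PF mean was 8809 ± 3265 CPM (SD, n = 5) against 155 ± 158 CPM (SD, n = 7) after alcohol, a ratio of 57, and the log2 fold change was -5.83 (SE 0.762). Of the 14168 genes, 18 (0.127%) had a log2 fold change under -5, and Serpina1e was the 13th from the bottom. Serpina1e also varied more than the other Serpina1 copies within each group, with a highest to lowest ratio of 2.73 in PF and 18.2 in AF livers.

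The other 4 copies had log2 fold changes closer to no change, a difference between copies that was not tested. Each stood at 759 CPM or more in every AF liver. Serpina1c stood at 3628, 4347, 3382, 2979 and 2948 CPM in PF livers and between 759 and 3017 CPM in AF livers, with a median of 1118. Only AF replicate 6 reached the PF range, and the log2 fold change was -1.13 (SE 0.337). Serpina1d stood at 2913, 3145, 2733, 2697 and 2554 CPM in PF livers and between 931 and 2155 CPM in AF livers, with a median of 1191. The groups did not overlap, and the log2 fold change was -0.91 (SE 0.243).

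Serpina1a and Serpina1b overlapped between the groups. Serpina1a averaged 1706 ± 356 CPM among PF livers against 1175 ± 311 CPM after alcohol (SD, n = 5 and 7), and 3 of 7 AF livers were within the PF range. Its log2 fold change was -0.54 (SE 0.205) and -0.21 with library totals. Serpina1b, at 4639, 4794, 4096, 4312 and 4133 CPM, had the narrowest PF spread of the 10 genes, with a highest to lowest ratio of 1.17. In AF livers it ran from 2153 over a median of 2804 to 4951 CPM, with 4 livers below the PF range, 2 within it and 1 above it. Its log2 fold change was -0.38 (SE 0.235), and -0.07 with library totals. Of the difference of 13412 CPM between the summed group means of the 5 copies, Serpina1e made up 64.5%. Serpina1a to Serpina1d together came to 12365 ± 1373 CPM with pair feeding and 7608 ± 2789 CPM with alcohol (SD, n = 5 and 7).

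The makeup of the Serpina1 counts within a library does not depend on the scaling between libraries. Serpina1e held 40.4% ± 7.69 (SD, n = 5) of them in PF livers, with 28.4% in the lowest and 48.7% in the highest liver. In AF livers it held 1.85% ± 1.47 (SD, n = 7), between 0.252 and 3.91%. Serpina1b went from 21.3% ± 3.14 to 44% ± 3.98, Serpina1a from 8.07% ± 0.596 to 15.7% ± 1.82, and Serpina1d from 13.6% ± 2.23 to 19.2% ± 0.779. These 3 shares did not overlap between the groups, and that of Serpina1c did, at 16.6% ± 2.68 and 19.3% ± 4.14. Per kilobase of windows found in a single gene, Serpina1c held the largest share, 41.2% in PF and 46.2% in AF livers, so the rank of Serpina1c rests on how shared reads were treated.

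**Figure D2:**
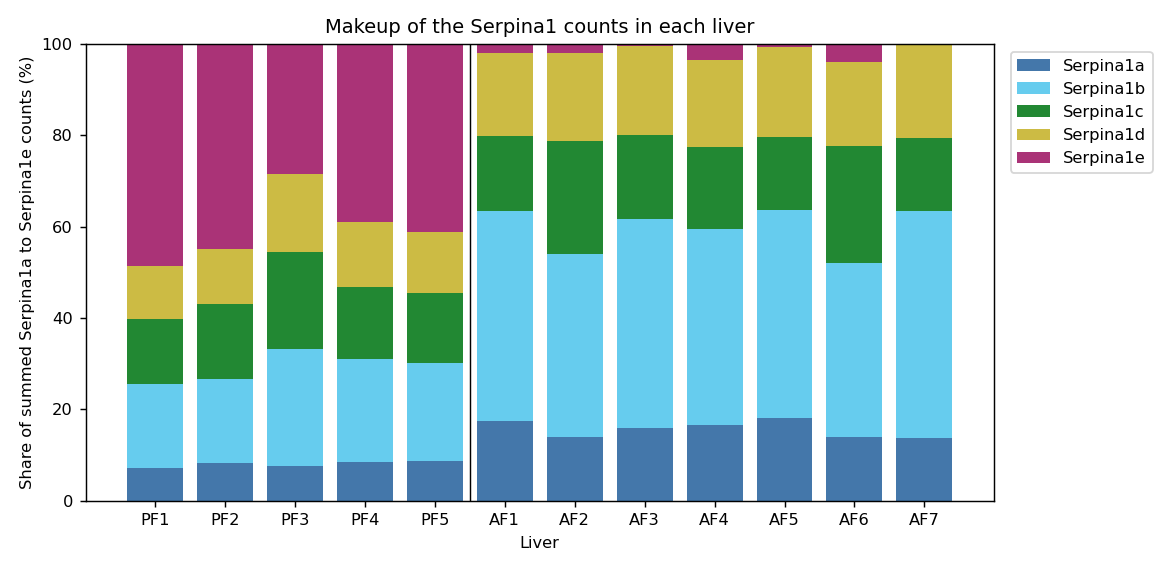
Share of each Serpina1 gene (colours, in percent) in the summed Serpina1a to Serpina1e counts of each of the 5 PF and 7 AF livers. Serpina1e fills 28.4 to 48.7% of the PF bars and at most 3.91% of the AF bars.

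Set against Serpina1b, whose upstream sequence above is the most like its own, Serpina1e had 1.97 ± 0.62 counts for each Serpina1b count in PF livers and 0.0446 ± 0.0375 in AF livers (SD, n = 5 and 7). The lowest PF ratio was 1.11 and the highest AF ratio 0.103. The ratio of Serpina1d to Serpina1b was even across livers of a group, at 0.639 ± 0.0215 in PF and 0.439 ± 0.0343 in AF livers, without overlap. Serpina1a against Serpina1b was 0.386 ± 0.0578 in PF and 0.358 ± 0.0409 in AF livers, and the groups overlapped.

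Of the Serpina3 genes, Serpina3k, which encodes contrapsin, a plasma inhibitor of trypsin-like proteases, was abundant in PF livers and much lower in AF livers. It stood at 14548, 15539, 10749, 12111 and 11857 CPM in PF livers, and at 412 in the lowest, 1374 in the median and 6776 in the highest AF liver. No AF liver reached the PF range. The PF mean was 12961 ± 2000 CPM (SD, n = 5) against 2449 ± 2309 CPM (SD, n = 7) after alcohol, a ratio of 5.29, with a log2 fold change of -2.40 (SE 0.567). AF livers were far apart, with a ratio of 16.5 between the highest, replicate 6, and the lowest, replicate 5.

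Serpina3m and Serpina3n, its near copies, overlapped between the groups. Serpina3m was 647 ± 106 CPM in PF and 445 ± 203 CPM in AF livers (SD, n = 5 and 7), with 6 AF livers below and 1 above the PF range and a log2 fold change of -0.54 (SE 0.278). With library totals 2 AF livers were below that range and the log2 fold change was -0.25. Serpina3n, the acute phase member, was 1025 ± 236 CPM in PF and 1096 ± 439 CPM in AF livers, with 2 AF livers below and 3 above the PF range. Its log2 fold change was 0.10 (SE 0.281), 0.42 with library totals, and -0.06 without AF replicate 6. Within a library, Serpina3k had 12.8 ± 1.33 counts for each Serpina3n count in PF livers, between 11.7 and 14.9, and 1.91 ± 1.18 in AF livers, between 0.819 and 3.86.

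Serpina6, the glucocorticoid carrier, was 316 ± 65.4 CPM in PF and 387 ± 234 CPM in AF livers (SD, n = 5 and 7). Its AF values ran from 121 in replicate 4 to 810.3 CPM in replicate 7, with 2 livers below, 3 within and 2 above the PF range of 232 to 389.7 CPM. The log2 fold change was 0.29 (SE 0.383), 0.59 with library totals and 0.00 without AF replicate 7. Over replicates 1 to 5 it was -0.21 with the replicate number as a block and -0.01 without the block. The AF spread exceeded the difference between the groups.

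Serpina4-ps1 (ENSMUSG00000092075) is annotated as an unprocessed pseudogene on the plus strand, at bases 104080649 to 104086724 of chromosome 12 in GRCm38. Every PF liver held reads on it, with counts of 310, 3153, 515, 667 and 495, or 15.3, 144, 21.5, 26.2 and 22.4 CPM. In AF livers, 5 of 7 libraries had a count of 0, replicate 3 had 1 and replicate 6 had 25. Where the count was 0, a limit of 3 counts per library allows up to 0.0778 to 0.115 CPM, which covers counting error only. The summed counts were 5140 in PF and 26 in AF livers. The fitted log2 fold change was -8.51 (SE 0.961), the 3rd lowest of all genes. The size of this value varied with the setting, and it was -12.21 without AF replicate 6, -7.40 without PF replicate 2 and -5.43 with DESeq2. All windows of its annotated exons at 75 bases were found in no other gene.

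**Figure D3:**
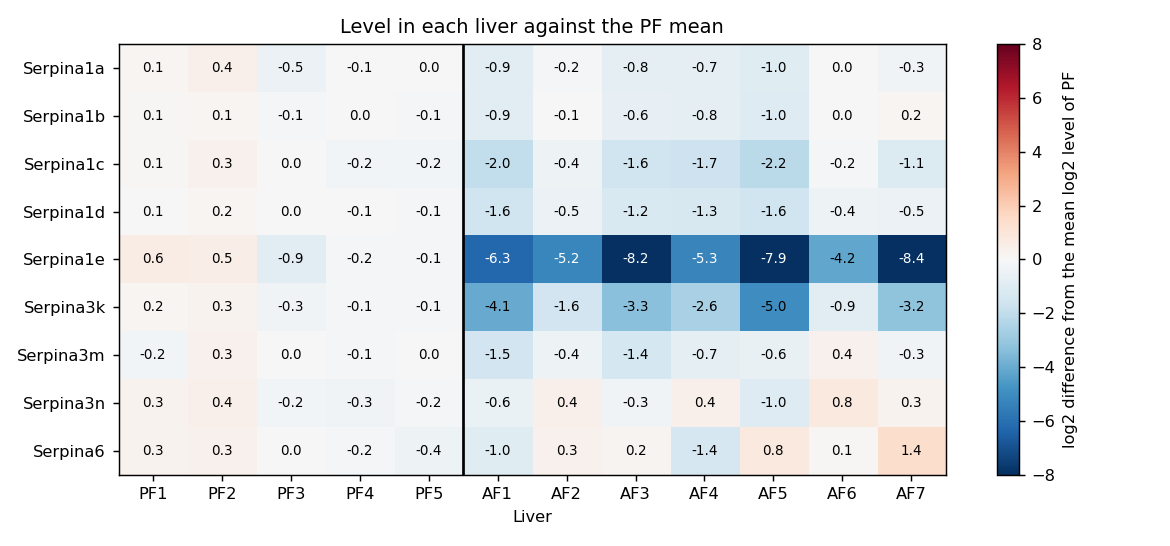
Level of 9 of the 10 genes in each liver as the log2 difference from the mean log2 CPM of the 5 PF livers, with blue below and red above that mean (Serpina4-ps1 is left out because 5 AF livers had no read). AF replicate 6 is the least lowered liver for Serpina1e and Serpina3k, which stand out in every AF column.

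AF livers had a similar order for many of the genes, and part of that order went with the scaling of the libraries. Leaving out Serpina4-ps1, AF replicate 6 was among the 2 highest AF livers for 8 of 9 genes and AF replicate 2 for 6. AF replicate 1 was among the 2 lowest for 8 of 9 genes and AF replicate 5 for 6. AF replicate 6 had the lowest and AF replicate 1 the highest TMM factor of the AF livers. With library totals the counts were 6 of 9 genes for AF replicate 6, 5 for AF replicate 2, and 6 for each of AF replicates 1 and 5. AF replicate 7 departed from this order, with the highest Serpina6 and Serpina1b and the lowest Serpina1e of all AF livers. Within the 7 AF livers, the Pearson correlation of Serpina4-ps1 with each of the other 9 genes, on log2(CPM + 0.1), ran from 0.02 for Serpina6 to 0.63 for Serpina1c, Serpina3k and Serpina3m. Spearman's rho ran from -0.18 to 0.53. None passed the exact two-sided permutation test over 9 relations, with Benjamini-Hochberg adjusted p from 0.3 to 0.952 for r and from 0.643 to 0.714 for rho. As 5 of the 7 counts of Serpina4-ps1 were tied at 0, few orders of the livers differed. A lone relation could therefore not pass after adjustment over 9, and nothing is read from this outcome. AF livers other than replicate 6 held 1 read on Serpina4-ps1 in all, so the relation could not be assessed without that liver, and without the 2 livers farthest from the median no variation was left.

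Levels per kilobase of annotated exon, which allow genes to be compared, put Serpina3k first in PF livers at 6301 ± 972 CPM per kb (SD, n = 5). Serpina1e followed at 5448 ± 2019, Serpina1c at 2540 ± 421, Serpina1d at 2015 ± 163, Serpina1b at 1820 ± 128 and Serpina1a at 931 ± 194 CPM per kb. Serpina3n had 497 ± 114, Serpina3m 376 ± 61.6, Serpina6 179 ± 37.1 and Serpina4-ps1 35.7 ± 42.8 CPM per kb. In this order the ranges of 1 SD overlapped for Serpina3k with Serpina1e, Serpina1c with Serpina1d, Serpina1d with Serpina1b, and Serpina3n with Serpina3m. This order rests on annotated exon length, and per kilobase of windows found in a single gene Serpina1c came before Serpina1e and Serpina1b in both groups. By exon length, Serpina1b came first in AF livers, at 1394 ± 473 CPM per kb (SD, n = 7), and Serpina1e came 9th, at 95.6 ± 97.5 CPM per kb. Each gene overlapped the next by 1 SD throughout the AF order.

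Markers of several cell types moved along with these values. For scale, edgeR called 22.0% of all genes higher and 17.8% lower. Of 10 hepatocyte markers, 3 were lower and none higher in AF livers by edgeR's test (unadjusted 7 lower and 0 higher, DESeq2 8 and 0, limma-voom 5 and 0), with a median log2 fold change of -0.76. Of 10 macrophage markers, 8 were higher, and their summed level was 1018 to 1598 CPM in PF and 1906 to 5116 CPM in AF livers. Of 8 stellate cell markers, 7 were higher (172 to 422 against 375 to 1013 CPM), and of 5 tested bile duct markers, 4 were higher by edgeR (49.6 to 244 against 70.4 to 1092 CPM), but 1 with limma-voom. Of 9 neutrophil markers none was called by edgeR, DESeq2 or limma-voom, and 4 were lower at an unadjusted p under 0.05 (58.6 to 945 against 46.8 to 202 CPM). For endothelium 1 of 6 markers was higher. For T and B cells 1 of 7 was lower by edgeR and 3 at an unadjusted p under 0.05. Their summed level was 5.95 to 12.6 CPM in PF and 2.49 to 5.27 CPM in AF livers, without overlap. Of 5 erythroid markers 1 was lower, while at an unadjusted p under 0.05 there were 3 higher and 1 lower, and the median log2 fold change of that list was 0.84. The part of these shifts in the serpin levels was not tested.

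Expressed per summed hepatocyte marker level, Serpina1e, Serpina3k and Serpina4-ps1 remained without overlap between the groups. The markers summed were Alb, Ttr, Apoa1, Apob, Tat, Cps1, Pck1, Ass1, Hpd and Serpinc1, the last itself a serpin. As 3 of these 10 genes were called lower in AF livers by edgeR, their sum is no measure of hepatocyte number alone. Serpina1e was 7.03% ± 2.2 of that sum in PF and 0.195% ± 0.17 in AF livers (SD, n = 5 and 7), and Serpina3k 10.5% ± 1.08 and 2.92% ± 2.33. Serpina1d was 2.3% ± 0.279 and 1.84% ± 0.434, and Serpina1c 2.82% ± 0.414 and 1.92% ± 0.845, with 4 and 5 of 7 AF livers below the PF range and the others within or above it. Serpina1a, at 1.37% ± 0.145 and 1.48% ± 0.267, Serpina1b, at 3.6% ± 0.38 and 4.17% ± 0.759, and Serpina3m, at 0.527% ± 0.07 and 0.55% ± 0.178, were slightly higher on this measure in AF livers, with overlap. Serpina3n was 0.83% ± 0.14 and 1.39% ± 0.547, above the PF range in 6 of 7 AF livers. Serpina6 was 0.258% ± 0.0532 and 0.467% ± 0.238, above it in 5 of 7. Hence the direction of Serpina1a, Serpina1b and Serpina3m depended on the reference, and that of Serpina1c, Serpina1d, Serpina1e, Serpina3k and Serpina4-ps1 was lower in AF livers on each.

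The cluster holds 28 annotated Serpina genes, of which 18 could be tested. Among the 8 tested genes outside the 10, edgeR's test called 1 lower and 0 higher in AF (unadjusted 1 and 1, DESeq2 1 and 0, limma-voom 2 and 0). The shares by edgeR over all genes were 17.8% lower and 22.0% higher. The gene called was Serpina11, a little studied serpin next to Serpina1e, at 33.8 ± 6.68 CPM in PF against 12 ± 6.63 CPM in AF livers (SD, n = 5 and 7), with every AF liver below the PF range, a log2 fold change of -1.50 (SE 0.321) and an edgeR adjusted p of 0.00315. Serpina12, which encodes the adipokine vaspin and lies between Serpina11 and Serpina4-ps1, is added here after its values were seen. It was 75.9 ± 11.9 CPM in PF and 26.2 ± 30.3 CPM in AF livers, with 6 of 7 AF livers below the PF range, a log2 fold change of -1.54 (SE 0.74) and an edgeR adjusted p of 0.112. It missed the threshold with DESeq2 and a filter at 1 count (adjusted p 0.126 for both) and with a filter at a mean of 10 counts (edgeR adjusted p 0.112), and passed it with limma-voom (adjusted p 0.0146) and with edgeR without AF replicate 6 (log2 fold change -2.18, adjusted p 0.021). Serpina9, also added after its values were seen, lies between Serpina11 and Serpina12 and had too few reads for the fit, with 128 reads over the PF livers and 8 over the AF livers. Its mean was 1.18 ± 0.921 CPM in PF against 0.0373 ± 0.0377 CPM in AF livers (SD, n = 5 and 7), with all 7 AF livers below the lowest PF liver. It was called lower where the filter admitted it, by DESeq2 (log2 fold change -5.02, adjusted p 1.23e-08) and by edgeR with the filters at 1 count (-4.82, adjusted p 0.000171) and at a mean of 10 counts (-4.84, adjusted p 0.000354). At the Serpina10 end and among the low Serpina3 genes, Serpina10 had a log2 fold change of -0.21 (SE 0.221) and Serpina3g of 0.81 (SE 0.365), with edgeR adjusted p of 0.461 and 0.0922.

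**Figure D4:**
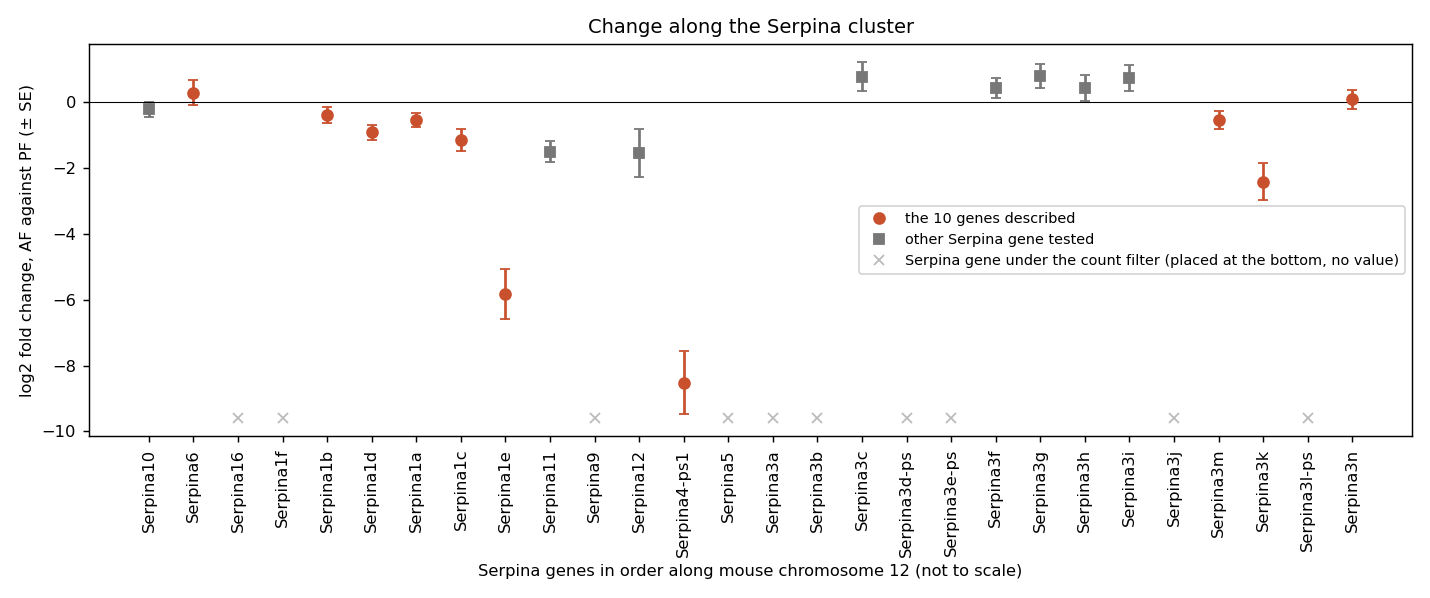
Log2 fold change of AF against PF (vertical axis, with SE bars) for the Serpina genes in their order on chromosome 12 (horizontal axis, not to scale), for the 10 genes described (circles) and the 8 other tested genes (squares). Crosses at the bottom edge mark 10 genes with too few reads and carry no value. Serpina1e at -5.83 and Serpina4-ps1 at -8.51 lie with Serpina11, Serpina9 (no value) and Serpina12 between them.

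Serpins outside chromosome 12 give the wider family. Of 40 with an ID in the data, 16 were tested, and edgeR called 6 higher and 2 lower in AF livers. Its shares over all genes were 22.0% higher and 17.8% lower. Among those higher were Serpinb6b, an intracellular serpin (log2 fold change 1.87, SE 0.418, edgeR adjusted p 0.00406), and its relative Serpinb6a (1.70, SE 0.33, edgeR adjusted p 0.00181). Serpinh1, the collagen chaperone HSP47, rose from 6.87 ± 2.12 to 19.3 ± 8.02 CPM (SD, n = 5 and 7; log2 fold change 1.49, edgeR adjusted p 0.00162). Serpind1, heparin cofactor II, and Serpinf2, the plasmin inhibitor, were the 2 called lower, each with a log2 fold change of -0.51. Neither was called with library totals, nor was Serpinf2 without PF replicate 1 or 2, when 1 gene was called lower. Without PF replicate 3, the number called higher was 3.

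Proteases that serpins bind were counted next. Of 18 listed, 13 were tested, with 2 higher and 6 lower in AF livers by edgeR's test. That test called 22.0% of all genes higher and 17.8% lower. Plat, tissue plasminogen activator, was 0.669 ± 0.407 CPM in PF and 6.22 ± 5.7 CPM in AF livers (SD, n = 5 and 7; log2 fold change 3.21, SE 0.675, edgeR adjusted p 0.00283). Prtn3, proteinase 3 of neutrophil granules and a target of alpha-1-antitrypsin, was 9.4 ± 7.71 CPM in PF and 1.27 ± 1.03 CPM in AF livers (log2 fold change -2.88, SE 0.55, edgeR adjusted p 0.00164), without overlap. Without PF replicate 1, which stood at 23.1 CPM, the log2 fold change of Prtn3 was -2.23 with an edgeR adjusted p of 0.00502. Elane, neutrophil elastase, was not called, at 2.83 ± 4.38 and 0.905 ± 0.911 CPM (edgeR adjusted p 0.168).

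Of 12 genes for the export and quality control of secreted glycoproteins in the endoplasmic reticulum, 1 was lower and 11 were not called by edgeR (unadjusted 4 lower and 0 higher, DESeq2 3 and 0, limma-voom 1 and 0). The gene was Edem1, which directs misfolded glycoproteins to degradation, with 345 ± 43 CPM in PF and 237 ± 42.6 CPM in AF livers (SD, n = 5 and 7; log2 fold change -0.54, SE 0.139, edgeR adjusted p 0.00852). It was not called with library totals (log2 fold change -0.21, edgeR adjusted p 0.136). Of 7 receptors and carriers for the uptake of plasma proteins and serpin complexes, 2 were higher and 3 lower by edgeR (DESeq2 and limma-voom 2 and 2). Among all genes, edgeR called 22.0% higher and 17.8% lower. Vldlr, a lipoprotein receptor that also takes up serpin complexes, rose from 2.35 ± 1.18 to 27.3 ± 12.7 CPM (log2 fold change 3.53, SE 0.41, edgeR adjusted p 6.32e-05). Of 12 transcription factors of hepatocyte genes, 4 were lower and none higher by edgeR (unadjusted 7 lower and 1 higher, DESeq2 6 and 0, limma-voom 5 and 0). Onecut1, also called HNF6, fell from 7.2 ± 2.38 to 2.35 ± 0.878 CPM (log2 fold change -1.62, SE 0.266, edgeR adjusted p 6.76e-04). Cebpb, an acute phase regulator, had a log2 fold change of -0.98 (SE 0.325, edgeR adjusted p 0.0283), which missed the threshold with library totals and without PF replicate 1 or 2 or AF replicate 3 or 5. Over these 4 lists 14 genes were lower. The count was 9 without PF replicate 1 or 2 and 8 without AF replicate 3. With library totals 9 were higher and 6 lower.

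The genes whose pattern over the 12 livers was most like Serpina4-ps1, by Pearson correlation of log2(CPM + 0.1), were Tarsl2 (r = 0.985), Cecr2 (0.979), Slco1a1 (0.976), Tsc1 (0.975) and Sec14l4 (0.974). The points share libraries, and the difference between the groups dominates each r. Within the 7 AF livers r was 0.98, 0.62, 0.71, 0.82 and 0.90 in the same order, where the spread of Serpina4-ps1 is that of replicate 6. Slco1a1, which encodes an organic anion transporter of hepatocytes, had a log2 fold change of -11.13, and the other 4 genes lay between -1.02 and -0.69.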

How the data were processed

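Whole liver RNA of 5 PF and 7 AF mice was sequenced by the authors, 1 library per mouse, with oligo(dT) enrichment and a stranded kit. The authors deposited unnormalized read counts per Ensembl gene. The submitters' processing notes name FastQC 0.10.1, TopHat2 2.0.13, HTSeq 0.10.0 and GRCm38. Read length, annotation and the strand setting of the counting are not given in the sources used here, so counts of overlapping genes are uncertain, such as Serpina1c, whose exons overlap B430119L08Rik on the other strand. Cuffdiff2 of the study was not used here.

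GENCODE M21 named 54165 of 54232 IDs. Depth was 24129900 to 30578639 counts, and 0 reads on a gene leave room for 3 counts at 95% confidence. No libraries were repeats: the difference in the closest of 31 pairs within groups was 23.5 times counting noise. Counts were filtered with filterByExpr by group, scaled with TMM and tested with edgeR 4.0.16 (quasi-likelihood, no covariate, Benjamini-Hochberg, threshold 0.05) in R 4.3.3. Correlations used log2(CPM + 0.1) and all 5040 orders of the 7 AF livers, many of which coincide because counts of Serpina4-ps1 were tied. Coding sequences and promoters were aligned with MAFFT 7.526.

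The members and lists were chosen with earlier results of these data known. Named genes were the 10 members, the 4 largest changes past the threshold in each list of other serpins and the 2 largest in each pathway list (mean log2 CPM of at least 0), and the 5 genes most like Serpina4-ps1. Some genes that this rule names are not reported here. Alternatives were DESeq2 1.42.0, limma-voom 3.58.1, RLE, upper-quartile and total scaling, 2 other count filters, the replicate number as a block, and each library left out. A fit of replicates 1 to 5 without the block was added after seeing the data.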

Additional observations from a re-analysis of the deposited data

Results flagged for a closer look

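In groups of 5 and 7 livers, 54 sets of values were searched for a liver far from the others, and 6 were found. The rule gives about 1 in 20, or 2.7, only for independent and normally spread values. These levels come from the same livers and are skewed, so the 6 are not read as more than chance. Serpina4-ps1 stood at 144 CPM in PF replicate 2, with the other PF livers between 15.3 and 26.2 CPM, and at 0.931 CPM in AF replicate 6, with the other AF livers between 0 and 0.0304 CPM. AF replicate 6 was also the liver nearest to PF on the first principal component, and held the highest AF level of Serpina1e, at 458 CPM, and Serpina3k, at 6776 CPM. Prtn3 stood at 23.1 CPM in PF replicate 1 (others 4.71 to 7.37 CPM) and at 3.41 CPM in AF replicate 4 (others 0.213 to 1.34 CPM). These were the livers with the highest summed neutrophil markers of their groups, 945 and 202 CPM. Plat stood at 18.1 CPM in AF replicate 1 (others 1.23 to 6.96 CPM), and Cebpb at 22.1 CPM in AF replicate 6 (others 6.83 to 11.7 CPM). The part of single livers in the results was not tested beyond leaving each out.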

How the results depend on the processing

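Serpina1c, Serpina1d, Serpina1e, Serpina3k and Serpina4-ps1 were called lower under all 7 alternatives that keep every library and in all 12 fits without 1 library, and no member was called higher. Because these same livers chose the members, this describes the settings and supports nothing about them. Members called lower ranged from 5 to 7 leaving out 1 library and members called higher from 0 to 0. Serpina1a was called in 4 of the 7 and in 3 of the 12. The log2 fold change of Serpina1e ranged from -6.48 to -5.55 and that of Serpina3k from -2.90 to -2.16 over the 7, and that of Serpina4-ps1 was -5.43 with DESeq2 and -9.87 with limma-voom. Deviations of same-numbered PF and AF livers from their group means had r from -0.076 to 0.115 for the 5 numbers. Livers of unlike number were not compared, so a pairing by number was not tested, and the numbers serve here as names. With the replicate number as a block, over replicates 1 to 5, 8 members, 2 other chromosome 12 genes, 4 serpins elsewhere and 22 pathway genes were lower, among 2914 genes lower in all. The same replicates without the block gave 8, 2, 5 and 22, among 3090.

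With library totals 6458 genes were higher and 938 lower against 3116 and 2519, and 3 other chromosome 12 genes were higher, 0 serpins elsewhere lower, and 9 pathway genes higher and 6 lower. Other chromosome 12 genes called lower numbered 3 with DESeq2 and with a filter at 1 count (Serpina5 and Serpina9 added), 2 with limma-voom and 2 with a mean of 10 counts. DESeq2 called 4 serpins elsewhere lower. Leaving out 1 library, other chromosome 12 genes numbered 0 to 1 higher (Serpina3g without PF replicate 5) and 1 to 2 lower (Serpina9 without PF replicate 3, Serpina12 without AF replicate 6), serpins elsewhere 3 to 6 higher and 1 to 3 lower, pathway genes 4 to 5 higher and 8 to 19 lower, and all genes 2519 to 3574 higher and 2119 to 2923 lower.

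Per kilobase of windows found in 1 gene, Serpina1a held 7.43%, Serpina1b 9.58%, Serpina1c 41.2% and Serpina1e 27.9% of the Serpina1 counts in PF, and Serpina1b 19.4% and Serpina1c 46.2% in AF livers. Within AF livers, r of Serpina4-ps1 with Serpina6 was -0.14 with library totals, -0.08 without AF replicate 1 and -0.14 without AF replicate 4. Without AF replicate 6 it was -0.11 for Serpina1b, -0.13 for Serpina1d, -0.21 for Serpina1a, -0.09 for Serpina1c, -0.44 for Serpina1e, -0.02 for Serpina3k, -0.55 for Serpina3m and -0.12 for Serpina3n, where 1 read in AF replicate 3 is all that varies and nothing can be read from r. Leaving out 1 AF liver the highest r were 0.17, 0.65, 0.64, 0.76, 0.86, 0.68, 0.81, 0.71 and 0.62 for Serpina6, Serpina1b, Serpina1d, Serpina1a, Serpina1c, Serpina1e, Serpina3k, Serpina3m and Serpina3n. Edem1 and Cebpb missed the threshold with library totals (log2 fold change -0.21 and -0.64). Beyond fewer libraries or genes, the causes were not tested. Depth limits Serpina4-ps1 in AF livers, where 5 of 7 counts were 0.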
